A study of Mus musculus with 99 samples.

Results

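A set of 10 genes that neurons switch on when they fire was followed through 4 mouse brain regions in a study of chronic social defeat. In that model a mouse meets an aggressor repeatedly and is classed by its later behaviour as susceptible or resilient. The genes were Arc, Npas4, Homer1, Nptx2, Scg2, Rgs2, Pcsk1, Sik1, Ier2 and Inhba, and all 10 of 10 were found by their Ensembl mouse gene IDs among the 37991 genes of the count table. The 7 groups were susceptible mice given ketamine and classed as responders or non-responders, susceptible mice given imipramine and classed as responders or non-responders, resilient mice given saline, susceptible mice given saline, and control mice given saline. Each group was sampled in the prefrontal cortex (PFC), the nucleus accumbens (NAC), the ventral hippocampus (HIP) and the basolateral amygdala (AMY), with 3 to 5 libraries in each of the 28 combinations and 99 libraries in all. Tissue of 2 mice was pooled for each library. The labels give no strain, sex, age, dose or sampling time. It is not stated whether one mouse contributed to several regions, and p-values measure the spread between these pools.

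Neuronal firing lets calcium into the cell, and calcium-dependent kinases then act on transcription factors such as CREB and SRF that already sit on the promoters of activity-induced genes. Some of the products are nuclear or signalling regulators, and others are effectors that alter the synapse or are released from it. Npas4 is a neuronal transcription factor, Ier2 a nuclear immediate early protein, Sik1 a kinase that holds back CREB coactivators, and Rgs2 a brake on G-protein signalling. Arc promotes the removal of AMPA receptors from synapses, the short form of Homer1 uncouples the postsynaptic scaffold, and Nptx2 is a secreted pentraxin that gathers AMPA receptors. Scg2 is a secretory granule protein, Pcsk1 the protease that cuts prohormones in those granules, and Inhba the subunit from which activin A is built. The gene counts do not separate the short activity-induced form of Homer1 from the long forms.

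CREB binds the letters of the cAMP response element, so the members' promoters are shown with those letters marked. RefSeq promoter windows (build GRCm38.p6, 250 bases before to 50 after the start) were matched for 6 of the 10 genes in 7 windows; Arc, Nptx2, Sik1 and Ier2 had no entry in the table used here. The 200 bases before the start are printed for the 5 genes that held a full element (TGACGTCA) or its short core (TGACG, either strand), which are in capitals.
Npas4, chr19:4989972-4990171, minus strand: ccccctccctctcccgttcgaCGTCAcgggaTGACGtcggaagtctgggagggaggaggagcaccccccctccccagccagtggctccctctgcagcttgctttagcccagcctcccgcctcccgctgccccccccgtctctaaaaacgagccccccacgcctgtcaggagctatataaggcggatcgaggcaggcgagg
Homer1, chr13:93303557-93303756, plus strand: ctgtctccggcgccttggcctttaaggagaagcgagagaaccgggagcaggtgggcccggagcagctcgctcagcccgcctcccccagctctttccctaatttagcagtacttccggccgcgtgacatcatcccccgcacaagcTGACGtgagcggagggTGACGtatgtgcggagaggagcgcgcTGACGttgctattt
Scg2, chr1:79440027-79440226, minus strand: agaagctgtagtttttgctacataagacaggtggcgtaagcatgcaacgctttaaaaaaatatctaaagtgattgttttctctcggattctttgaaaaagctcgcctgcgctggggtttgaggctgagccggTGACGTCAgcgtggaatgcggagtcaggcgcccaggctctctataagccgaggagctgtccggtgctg
Rgs2, chr1:144004150-144004349, minus strand: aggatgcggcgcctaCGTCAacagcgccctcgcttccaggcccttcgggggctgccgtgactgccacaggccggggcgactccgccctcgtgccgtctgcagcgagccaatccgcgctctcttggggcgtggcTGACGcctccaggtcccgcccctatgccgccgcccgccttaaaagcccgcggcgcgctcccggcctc
Pcsk1, chr13:75089657-75089856, plus strand: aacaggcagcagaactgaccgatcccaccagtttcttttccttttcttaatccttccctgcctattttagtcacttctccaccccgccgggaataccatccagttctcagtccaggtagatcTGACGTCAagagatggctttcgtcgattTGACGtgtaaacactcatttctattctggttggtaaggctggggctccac
Scg2 and Pcsk1 held the full element, at 68 and 78 bases before the start, and 1.79% of all 32851 windows held one. Short cores outside a full element stood in Npas4 (2), the first Homer1 window (3), Rgs2 (2) and Pcsk1 (1), and 20.81% of all windows held a short core. Every full element also holds the core on both strands. The Inhba window and the second Homer1 window held no match. Neither the AP-1 site TGANTCA, in 7.808% of windows, nor the CArG box bound by SRF, in 1.629%, was in any of the 7 windows. A match is a description of letters and was not tested for binding.

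The libraries held 14459028 to 59187954 counted reads. Levels are given in CPM, the usual read count unit scaled for library depth, on one scale over all 99 libraries, and were not divided by gene length, so a gene is compared between samples and not with another gene. The HIP labels went with their defining markers: the summed level of 6 hippocampal markers was 407 to 682 CPM in HIP libraries and at most 50.9 CPM in the other regions. In NAC libraries the sum of 8 striatal markers was at least 2728 CPM, against at most 214 CPM in the PFC and 177 CPM in the HIP. AMY libraries held 221 to 3076 CPM, so this sum did not separate every AMY library from the NAC. A pair of libraries stood apart from their groups, imipramine responder replicate 3 in the NAC and imipramine responder replicate 2 in the AMY, with median within-group correlations of 0.937 and 0.943. All 10 genes passed the filter on low counts in every region.

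In control mice the 10 genes differed by region, and all 10 of 10 passed the test of any difference among the 4 regions (edgeR quasi-likelihood test, adjusted p at most 0.00621), as did 72.9% of all genes tested. By pair, 7 of 10 passed for AMY over HIP (40.6% of all genes), 8 for AMY over NAC (49.9%), 8 for AMY over PFC (36.1%), 6 for HIP over NAC (50.9%), 7 for HIP over PFC (41.9%) and 7 for NAC over PFC (56.2%). The median absolute log2 fold change of the 10 genes lay between 0.75 and 1.16 in the 6 pairs, against 0.20 to 0.33 for all genes. In bulk tissue, fewer expressing cells and less RNA per cell cannot be told apart.

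**Figure D1:**
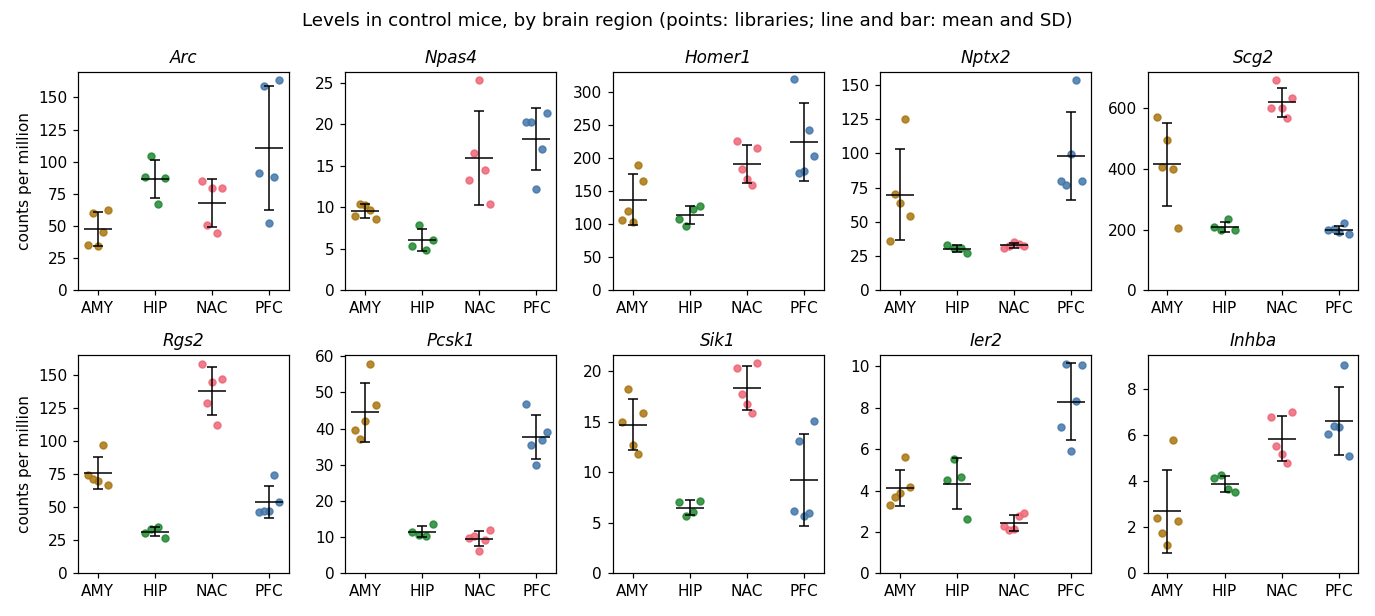
Level of each gene in control mice (CPM, y axis, linear from 0) in the AMY, HIP, NAC and PFC (x axis). Points are libraries, and the line and bar are the mean and SD of 4 or 5 libraries; Pcsk1 is high in AMY and PFC, whereas Scg2, Rgs2 and Sik1 are highest in NAC.

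Pcsk1, the granule protease, split the regions into a high and a low pair. It measured 39.5, 37.0, 42.1, 57.7 and 46.5 CPM in the AMY control libraries, 11.4, 10.7, 10.2 and 13.7 CPM in the HIP, 9.78, 10.3, 6.27, 9.33 and 12.1 CPM in the NAC, and 46.7, 35.4, 30.1, 37.0 and 39.1 CPM in the PFC. Every AMY and PFC library lay above every HIP and NAC library. The fold was 4.65 for AMY over NAC (log2 2.22, SE 0.15, adjusted p = 1.87e-10, edgeR) and the log2 fold change was -1.98 for NAC over PFC (SE 0.15, adjusted p = 6.44e-10, edgeR), while AMY over PFC did not pass (0.24, adjusted p = 0.205, edgeR). Scg2, whose product is packed in the same granules, followed another order. It averaged 416 ± 137 CPM in the AMY, 209 ± 16.8 CPM in the HIP, 620 ± 47.9 CPM in the NAC and 200 ± 13.4 CPM in the PFC (SD, n = 5, 4, 5 and 5). Scg2 was higher in NAC than in PFC by 1.64 on the log2 scale (SE 0.17, adjusted p = 1.4e-07, edgeR), and its order NAC, AMY, HIP, PFC was the same in 7 of 7 conditions. Inhba was lowest in the AMY in 7 of 7 conditions, with 2.69 ± 1.78 CPM in AMY controls against 6.59 ± 1.47 CPM in PFC controls (SD, n = 5 each; log2 -1.30, SE 0.27, adjusted p = 8.67e-04, edgeR). Its HIP over PFC call (-0.76, adjusted p = 0.0421, edgeR) was lost on leaving out any of the HIP or PFC control libraries except PFC replicate 5, with values of -0.80 to -0.62.

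The signalling genes Rgs2 and Sik1 were both highest in the NAC. Rgs2 measured 74.4, 71.6, 69.99, 96.8 and 66.6 CPM in the AMY control libraries, 30.6, 33.1, 34.9 and 26.9 CPM in the HIP, 158, 128, 144, 112 and 147 CPM in the NAC, and 46.6, 47.2, 47.1, 74.5 and 53.6 CPM in the PFC. The NAC libraries stood above all others and the HIP libraries below all others. HIP over NAC was -2.14 on the log2 scale (SE 0.15, adjusted p = 1.19e-10, edgeR). Sik1 averaged 14.7 ± 2.56 CPM in the AMY, 6.50 ± 0.76 CPM in the HIP, 18.3 ± 2.17 CPM in the NAC and 9.22 ± 4.55 CPM in the PFC, an order kept in 7 of 7 conditions for both genes. Its PFC controls fell in a low trio of 5.66 to 6.22 CPM and a pair at 13.2 and 15.1 CPM. The Sik1 difference for AMY over PFC (0.64, adjusted p = 0.0327, edgeR) was lost without AMY replicates 1, 2 or 5 or without PFC replicates 1, 3 or 4, with values of 0.51 to 0.64.

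Ier2, Npas4, Nptx2, Homer1 and Arc, like Inhba, had their highest control mean in the PFC. The NAC was not shown to differ from it for Npas4 (-0.18, edgeR adjusted p = 0.441) or Homer1 (-0.24, edgeR adjusted p = 0.281), nor the HIP for Arc (-0.37, edgeR adjusted p = 0.363). Ier2 was highest in the PFC and lowest in the NAC in 7 of 7 conditions, at 2.44 ± 0.38 CPM in NAC controls and 8.30 ± 1.84 CPM in PFC controls (SD, n = 5 each; log2 -1.77, SE 0.19, adjusted p = 7.03e-08, edgeR). Npas4 averaged 6.01 ± 1.35 CPM in HIP controls and 18.2 ± 3.73 CPM in PFC controls (SD, n = 4 and 5), a log2 difference of -1.60 (SE 0.22, adjusted p = 5.81e-06, edgeR). Its HIP level was the lowest of the 4 regions in 7 of 7 conditions. Nptx2 was highest in the PFC in 7 of 7 conditions, and HIP over PFC was -1.69 on the log2 scale (SE 0.28, adjusted p = 7.44e-05, edgeR). AMY over PFC missed the threshold for Nptx2 (-0.50, edgeR adjusted p = 0.134) and passed with the run of sample numbers as a replicate block (-0.54, edgeR adjusted p = 0.0270). Homer1 spanned the narrowest range, 1.98-fold between the highest and lowest region, with HIP over PFC at -0.99 on the log2 scale (SE 0.20, adjusted p = 3.96e-04, edgeR). The Homer1 call for AMY over NAC (-0.48, edgeR adjusted p = 0.0328) was lost when NAC replicate 1 or 5 or AMY replicate 1, 2 or 3 was left out (values -0.44 to -0.40), and the Npas4 call for AMY over HIP (0.65, edgeR adjusted p = 0.0216) when HIP replicate 1 or 3 was (0.59 and 0.57).

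Arc levels overlapped between neighbouring regions. Its control libraries measured 34.9, 60.1, 34.5, 44.97 and 62.2 CPM in the AMY, 88.1, 104, 67.1 and 86.9 CPM in the HIP, 85.2, 50.8, 79.1, 44.2 and 79.9 CPM in the NAC, and 91.4, 159, 52.2, 87.8 and 163 CPM in the PFC. All neighbours in the order PFC, HIP, NAC, AMY overlapped, and AMY was the lowest region in 7 of 7 conditions. AMY over PFC was -1.24 on the log2 scale (SE 0.29, adjusted p = 0.00248, edgeR) and kept its call without any single control library. NAC over PFC passed narrowly (-0.71, SE 0.28, adjusted p = 0.0426, edgeR) and was lost without PFC replicate 2 or 5, at -0.55 and -0.52, or NAC replicate 2 or 4, at -0.62 and -0.59. AMY over HIP (-0.87, adjusted p = 0.0274, edgeR) was likewise lost without any one HIP library other than replicate 3, or without AMY replicate 1, 3 or 4, at values of -0.87 to -0.78. The spread between libraries of the same condition also depended on region: the pooled SD of log2 Arc was 0.53 in the PFC, 0.43 in the NAC, 0.35 in the AMY and 0.20 in the HIP.

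No member passed the test between stress or drug conditions. Over the 36 combinations of region and comparison, none of the 360 tests of a member passed the adjusted threshold (edgeR quasi-likelihood test; smallest adjusted p = 0.293), and 0.0187% of all gene tests did. At unadjusted p below 0.05 stood 25 of the 360, on 7 of the 10 genes, against 4.47% of all gene tests; DESeq2 also called 0 and had 26 of 360 at unadjusted p below 0.05, against 4.37% of all its gene tests, of which 0.0668% were called. Arc and Ier2 each supplied 7 of these, Npas4 4, Rgs2 3, Inhba 2, and Nptx2 and Sik1 1 each, and Homer1, Scg2 and Pcsk1 had none in 36 tests each. No unadjusted value that follows is a call.

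**Figure D2:**
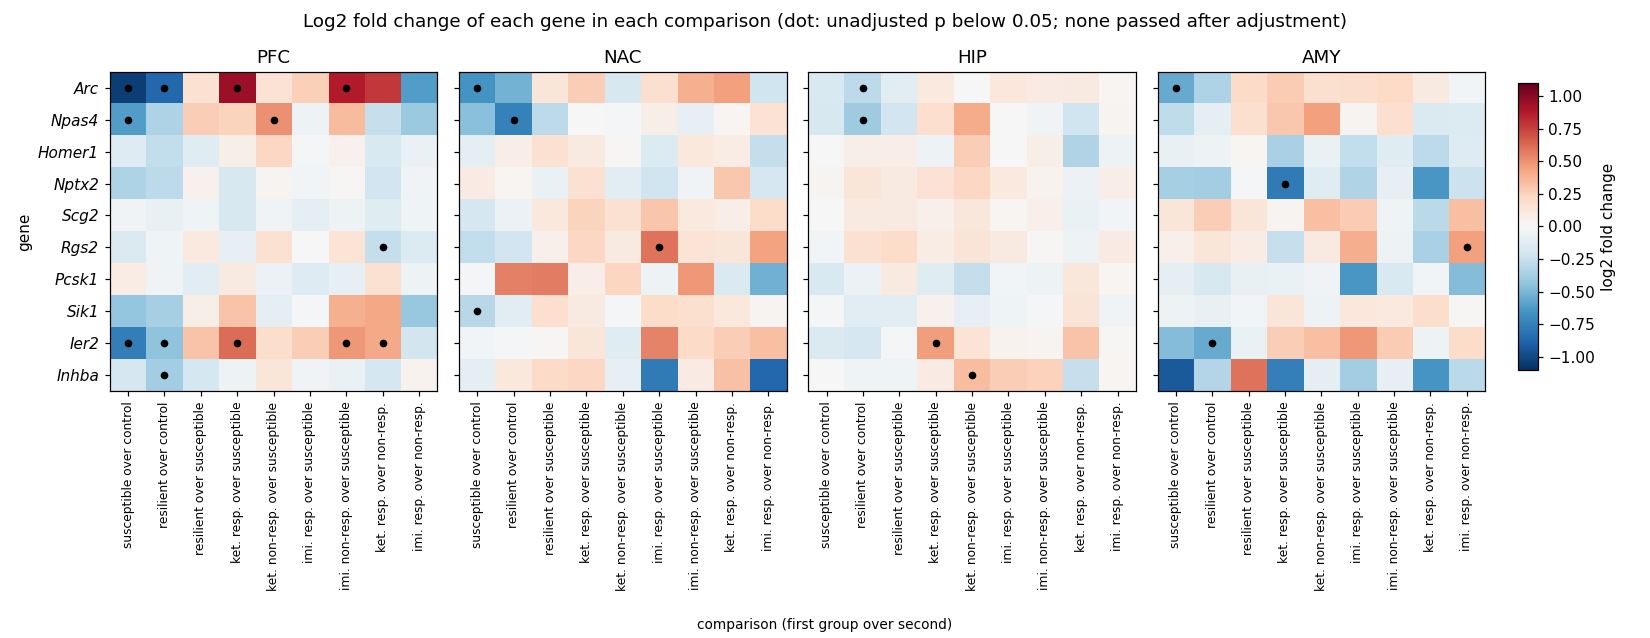
Log2 fold change (colour; red higher and blue lower in the first-named group) of the 10 genes (rows) in 9 comparisons (columns) within each region (panels), with a dot where the unadjusted p was below 0.05. Dots gather on Arc and Ier2 in the PFC, and 0 of 360 tests passed after adjustment.

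Arc was highest in control mice among the 7 conditions in all 4 regions, by group mean. In the PFC, Arc measured 67.8, 39.1 and 55.2 CPM in susceptible mice, against 91.4, 159, 52.2, 87.8 and 163 CPM in controls. All but 1 control library lay above the susceptible ones, yet the groups overlapped because control replicate 3 was low. The fold was 0.487 (log2 -1.04, SE 0.40, unadjusted p = 0.0170; edgeR adjusted p = 1.00), and leaving out single libraries gave -1.24 to -0.85. The same contrast gave -0.66 in the NAC (SE 0.30, unadjusted p = 0.0379), -0.17 in the HIP (SE 0.14, unadjusted p = 0.237) and -0.56 in the AMY (SE 0.24, unadjusted p = 0.0296), by edgeR. NAC means were 42.9 ± 9.47 CPM in susceptible mice and 67.8 ± 18.8 CPM in controls (SD, n = 3 and 5), and AMY means were 32.1 ± 9.04 CPM in susceptible mice and 47.3 ± 13.3 CPM in controls (SD, n = 3 and 5). Striatal markers moved with the AMY comparison: 8 of 8 were higher, 4 at unadjusted p below 0.05, with sums of 658 to 1063 CPM in susceptible mice and 221 to 683 CPM in controls. AMY control replicate 4 held 743 CPM of choroid plexus markers. The part of either tissue in the AMY Arc value was not tested. The contrast was not shown to differ between regions (interaction over 99 libraries, unadjusted p = 0.218; edgeR adjusted p = 1.00). Cortical tissue varied in the NAC susceptible group, with marker sums of 51.5 to 1215 CPM against 57.4 to 303 CPM in controls, and NAC Arc stood at -0.53 without susceptible replicate 3, the library at 1215 CPM.

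**Figure D3:**
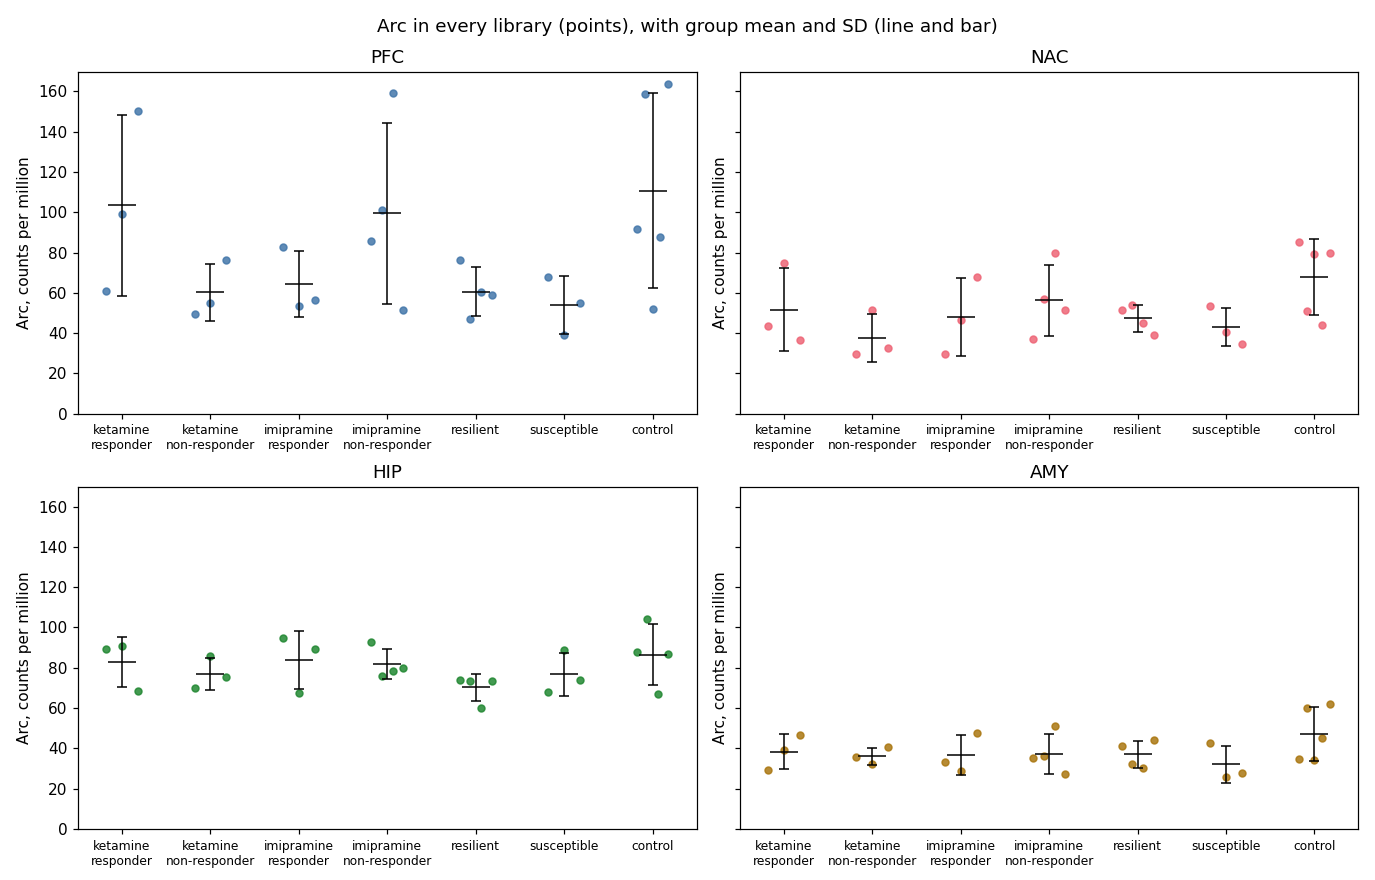
Arc in every library (points; CPM, linear axis from 0) by condition (x axis) and region (panels), with the group mean and SD. PFC controls run from 52.2 to 163 CPM and overlap the susceptible libraries at 39.1 to 67.8 CPM, and the HIP libraries are the most even.

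Resilient and susceptible mice were not shown to differ in PFC Arc (log2 0.17, 95% interval -0.62 to 0.96). Resilient PFC libraries held 76.2, 46.8, 60.6 and 59.0 CPM of Arc, below 4 of the 5 control libraries (log2 -0.87, SE 0.35, unadjusted p = 0.0246; edgeR adjusted p = 0.477). In the HIP, resilient libraries measured 74.1, 73.6, 60.2 and 73.7 CPM against 88.1, 104, 67.1 and 86.9 CPM in controls (-0.29, SE 0.13, unadjusted p = 0.0334). All 10 genes had a negative fold change for resilient over control in the PFC, where 3 of 10 were at unadjusted p below 0.05 against 9.36% of all genes. The median over the 10 was -0.32 against 0.00 for all genes, of which 49.5% had a negative fold change. All 10 were measured in the same resilient and control libraries, so their signs are not independent.

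Ier2 was the member whose PFC levels did not overlap between susceptible and control mice. It measured 5.26, 4.79 and 4.73 CPM in susceptible libraries, against 7.09, 10.1, 5.91, 8.33 and 10.1 CPM in controls. Every susceptible library lay below every control library, a pattern shown by 0.868% of all genes in that direction. The fold was 0.591 (log2 -0.76, SE 0.17, unadjusted p = 1.87e-04; edgeR adjusted p = 1.00). Ier2 was also at -0.44 in resilient over control mice (SE 0.15, unadjusted p = 0.00717; 6.29, 6.03, 5.43 and 6.67 CPM in resilient libraries). In the test of any difference among the 7 PFC conditions Ier2 had an unadjusted p = 0.00271 (edgeR adjusted p = 0.308), whereas DESeq2's likelihood ratio test called it (adjusted p = 0.0249) together with 0.97% of all genes. With edgeR, 0 of 10 members passed that test in the PFC, where 0.137% of all genes did.

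Npas4 pointed the same way in the PFC, with 14.4, 11.2 and 9.84 CPM in susceptible libraries and 20.2, 20.2, 12.2, 17.0 and 21.3 CPM in controls. Its groups overlapped through the same low control replicate 3 (log2 -0.62, SE 0.22, unadjusted p = 0.00989; edgeR adjusted p = 1.00). Together with Arc and Ier2 it made 3 of 10 genes at unadjusted p below 0.05 for susceptible over control in the PFC, against 3.1% of all genes, and 9 of 10 fold changes were negative with a median of -0.26. The PFC susceptible group held 1 library, replicate 2, with choroid plexus RNA: the summed level of 6 choroid plexus markers was 508 CPM there, 4.37 and 4.92 CPM in the other susceptible libraries, and 3.13 to 8.36 CPM in controls, and 4 of 4 markers that passed the filter were higher at unadjusted p below 0.05. Without that library the Arc fold change was -0.85. In the NAC, Npas4 was 10.9, 9.71, 9.03 and 8.68 CPM in resilient mice against 13.2, 16.5, 25.3, 14.5 and 10.3 CPM in controls (-0.74, SE 0.26, unadjusted p = 0.00889), and in the HIP it stood at -0.39 for the same contrast (SE 0.19, unadjusted p = 0.0478), or -0.23 without control replicate 2. These made 1 of 10 genes in the NAC (1.64% of all genes) and, with Arc, 2 of 10 in the HIP (1.79%). For resilient over control, NAC cortical marker sums were 78.5 to 750 CPM against 57.4 to 303 CPM, and HIP choroid plexus sums 36.5 to 991 CPM against 44.7 to 51.4 CPM. The part of these tissues was not tested.

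Sik1 in the NAC measured 14.1, 14.7 and 15.5 CPM in susceptible libraries, all below the controls at 20.4, 17.8, 16.8, 15.9 and 20.8 CPM. Its log2 fold change was -0.31 (SE 0.12, unadjusted p = 0.0202; edgeR adjusted p = 1.00), and with Arc it made 2 of 10 genes at that level against 0.875% of all genes. Non-overlap in that direction was seen in 1.13% of all genes. The counts for susceptible over control were 0 of 10 in the HIP (0.935% of all genes) and 1 of 10 in the AMY (1.3%). Fold changes were negative for 9 of 10 genes in the NAC and HIP and 8 of 10 in the AMY, with medians of -0.14, -0.02 and -0.19. Over all genes tested, 50.2%, 49.7% and 49.8% were negative in the NAC, HIP and AMY. In the AMY resilient group Ier2 was 2.56, 2.94, 2.22 and 3.42 CPM against 3.29, 3.70, 3.88, 5.61 and 4.17 CPM in controls (-0.55, SE 0.24, unadjusted p = 0.0349), 1 of 10 genes against 5.61% of all. Striatal markers moved with that comparison: 8 of 8 were higher, 7 at unadjusted p below 0.05, with sums of 553 to 1904 CPM in resilient mice and 221 to 683 CPM in controls. All 5 of 5 oligodendrocyte markers were higher at that level too, with sums of 2927 to 3974 CPM in resilient mice and 2247 to 3380 CPM in controls. Without control replicate 4, which held 743 CPM of choroid plexus markers, Ier2 stood at -0.42. The part of any of these markers in the Ier2 value was not tested. Inhba in the PFC was 4.11, 4.06, 7.48 and 4.56 CPM in resilient mice and 6.06, 6.40, 6.34, 9.05 and 5.11 CPM in controls (-0.38, SE 0.17, unadjusted p = 0.0306), with -0.62 without resilient replicate 3 and -0.25 without control replicate 4.

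Ketamine responders had higher PFC means of Arc and Ier2 than susceptible mice given saline, at the unadjusted level only. Arc measured 61.0, 98.9 and 150 CPM in ketamine responders, against 67.8, 39.1 and 55.2 CPM in susceptible mice (log2 0.94, SE 0.43, unadjusted p = 0.0426; edgeR adjusted p = 0.777). The value was 0.57 without responder replicate 3. Ier2 measured 8.04, 6.31 and 8.32 CPM in ketamine responders, all above the susceptible libraries at 5.26, 4.79 and 4.73 CPM (0.61, SE 0.19, unadjusted p = 0.00385; edgeR adjusted p = 0.401). These were 2 of 10 genes, against 6.18% of all genes, and 5.54% of all genes did not overlap in that direction. Oligodendrocyte markers moved with this comparison: 5 of 5 were higher at unadjusted p below 0.05, with sums of 1953 to 2749 CPM in ketamine responders and 1437 to 1705 CPM in susceptible mice. Thalamus markers were higher for 5 of 6 genes, 2 of them at that level, with sums of 46.1 to 60.8 CPM in responders and 41.3 to 44.3 CPM in susceptible mice. The part of either tissue in the Arc and Ier2 values was not tested. Imipramine non-responders also had unadjusted values in the PFC: Arc was 86.0, 101, 159 and 51.5 CPM (0.87, SE 0.41, unadjusted p = 0.0468) and Ier2 6.60, 6.81, 9.44 and 4.83 CPM (0.47, SE 0.18, unadjusted p = 0.0150) over susceptible mice, 2 of 10 genes against 4.24%. Without non-responder replicate 3 the values were 0.56 and 0.30. All 5 of 5 microglial markers were higher in these non-responders, 2 at that level, with sums of 204 to 227 CPM against 192 to 201 CPM in susceptible mice, and their part was not tested. Imipramine responders held 83.0, 53.4 and 56.6 CPM of Arc, and 0 of 10 genes reached the unadjusted level over susceptible mice, against 1.97% of all. Their Ier2, at 6.48, 5.83 and 5.55 CPM, also lay above every susceptible library, as for 2.95% of all genes in that direction. So did Ier2 in the resilient libraries, at 5.43 to 6.67 CPM (3.08% of all genes). The gap above susceptible mice was therefore not particular to ketamine responders. Ketamine non-responders had 49.4, 55.2 and 76.2 CPM of Arc, within the susceptible range but for the last.

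The remaining drug contrasts held scattered values. PFC Npas4 was 12.6, 15.9 and 21.6 CPM in ketamine non-responders against 14.4, 11.2 and 9.84 CPM in susceptible mice (0.50, SE 0.24, unadjusted p = 0.0484), 1 of 10 genes against 4.34%, and 0.27 without non-responder replicate 3. Between ketamine responders and non-responders in the PFC, Rgs2 was 42.2, 48.9 and 44.4 CPM against 53.0, 56.7 and 52.7 CPM (-0.26, SE 0.12, unadjusted p = 0.0380) and Ier2 was at 0.42 (SE 0.19, unadjusted p = 0.0362), 2 of 10 genes against 4.54%. The Rgs2 groups did not overlap, as for 5.44% of all genes in that direction. Here too 5 of 5 oligodendrocyte markers were higher at that level, with overlapping sums of 1953 to 2749 CPM in responders and 1446 to 2408 CPM in non-responders, and their part was not tested. In the HIP, Ier2 was 4.41, 4.99 and 6.67 CPM in ketamine responders, all above 4.12, 3.72 and 3.87 CPM in susceptible mice (0.46, SE 0.21, unadjusted p = 0.0375; 1 of 10 genes against 9.98%), and 0.27 without responder replicate 3. Such a gap in that direction was seen in 7.04% of all genes. HIP Inhba was 5.27, 4.49 and 4.92 CPM in ketamine non-responders, all above 3.29, 4.43 and 3.84 CPM in susceptible mice (0.34, SE 0.16, unadjusted p = 0.0457; 1 of 10 genes against 5.73%), and 7.45% of all genes did not overlap in that direction. Thalamus markers moved with both HIP ketamine groups: their 6-gene sum was 149 to 703 CPM in responders, 143 to 166 CPM in non-responders and 43.3 to 44.2 CPM in susceptible mice. Choroid plexus sums were 43.4 to 2528 CPM in responders, 38.3 to 1780 CPM in non-responders and 39.9 to 45.8 CPM in susceptible mice. The part of either tissue in the Ier2 and Inhba values was not tested.

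In the AMY the 1 unadjusted value in ketamine responders was that of Nptx2. It measured 32.5, 22.5 and 38.7 CPM in ketamine responders, all below the susceptible libraries at 65.8, 48.8 and 47.8 CPM (log2 -0.78, SE 0.33, unadjusted p = 0.0292; edgeR adjusted p = 1.00). This was 1 of 10 genes against 4.22% of all, and 9.05% of all genes did not overlap in that direction. Nptx2 was also the 1 of 90 member interactions across regions at unadjusted p below 0.05, against 4.09% of all genes, for this contrast (unadjusted p = 0.0393; edgeR adjusted p = 0.929), and 0 of 90 passed, against 0.0876%. Markers of neighbouring tissue moved with it: 8 of 8 striatal markers had a negative fold change, with sums of 321 to 701 CPM in responders and 658 to 1063 CPM in susceptible mice, and responder replicate 2 held 2832 CPM of choroid plexus markers against 14.1 and 17.5 CPM in the other responders. Without that replicate Nptx2 stood at -0.59, and the part of these tissues in the result was not tested.

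Both Rgs2 values in imipramine responders depended on the libraries that stood apart from their groups. In the NAC, Rgs2 measured 102, 113 and 299 CPM in imipramine responders against 143, 121 and 79.4 CPM in susceptible mice (log2 0.60, SE 0.28, unadjusted p = 0.0418; 1 of 10 genes against 11.6%). Without replicate 3 the value was -0.09. That library also had the highest striatal marker sum of all libraries, 10103 CPM, and the lowest NAC levels of Pcsk1, 3.02 CPM, and Inhba, 0.325 CPM. In the AMY, Rgs2 was 79.8, 154 and 74.7 CPM in imipramine responders against 78.0, 71.3, 80.1 and 73.0 CPM in non-responders (0.45, SE 0.19, unadjusted p = 0.0235; 1 of 10 genes against 15.3%), and 0.04 without replicate 2. Replicate 2 held 3076 CPM of striatal markers, against 1015 and 864 CPM in the other AMY imipramine responders, with 9.91 CPM of Pcsk1 against 37.6 and 32.1 CPM. Rgs2 was called in 3 fits that kept the library standing apart and left out another responder (edgeR). Without NAC responder replicate 1 it passed over susceptible mice (0.87, adjusted p = 0.0467) and over non-responders (0.72, adjusted p = 0.0466), fits in which 8.19% and 19.5% of all genes were called. Without AMY responder replicate 3 it passed over non-responders (0.65, adjusted p = 0.0415), with 8.81% of all genes called.

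Homer1, Scg2 and Pcsk1 held no unadjusted value in any comparison. Homer1 fold changes ran from -0.36 to 0.27 and Scg2 from -0.30 to 0.33 over the 36 comparisons. Pcsk1 ran from -0.64 to 0.57. The 4 NAC libraries with the highest cortical marker sums, 617 to 1215 CPM, were the 4 with the highest Pcsk1, 14.9 to 17.8 CPM. They came from susceptible, imipramine non-responder and resilient mice. Below them the order was not kept. Control replicate 4 had a cortical sum of 303 CPM with 9.33 CPM of Pcsk1, and imipramine non-responder replicate 1 had 178 CPM with 13.5 CPM. The part of cortical tissue in the NAC Pcsk1 levels was not tested. In the test over all 7 conditions, Nptx2 and Inhba were the 2 of 10 members at unadjusted p below 0.05 in the AMY, against 5.97% of all genes (unadjusted p = 0.0461 each; edgeR adjusted p = 0.828 each). There Inhba lay between 0.0605 and 5.76 CPM, and the test included both extremes. The lowest, 2 counts, was imipramine responder replicate 2, which stood apart with 3076 CPM of striatal markers. The highest was control replicate 4. The median AMY level of Inhba was 1.58 CPM, and so low a level limits what can be detected.

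Among libraries of the same condition, Arc varied with Sik1 in the PFC and AMY and with Ier2 in the PFC. Pearson r was computed on log2 CPM after removing condition means, with permutation within conditions and adjustment over 36 relations. In the 25 PFC libraries Arc went with Sik1 (r = 0.798, rho = 0.724, permutation p = 1.80e-04, adjusted p = 0.00648) and Ier2 (r = 0.799, rho = 0.688, permutation p = 7.80e-04, adjusted p = 0.0140). Without the 2 libraries farthest in Arc, r was 0.770 and 0.682. In the 25 AMY libraries Arc went with Sik1 (r = 0.655, rho = 0.660, permutation p = 0.00373, adjusted p = 0.0448; 0.640 without 2). The AMY relation passed narrowly and was lost with the run of sample numbers as a covariate (r = 0.605, permutation adjusted p = 0.0823). No relation passed in the NAC or HIP, and the other 33 r values lay between -0.58 and 0.51. Scg2 had the lowest of these, -0.58 in the HIP (permutation p = 0.0106, adjusted p = 0.0951).

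**Figure D4:**
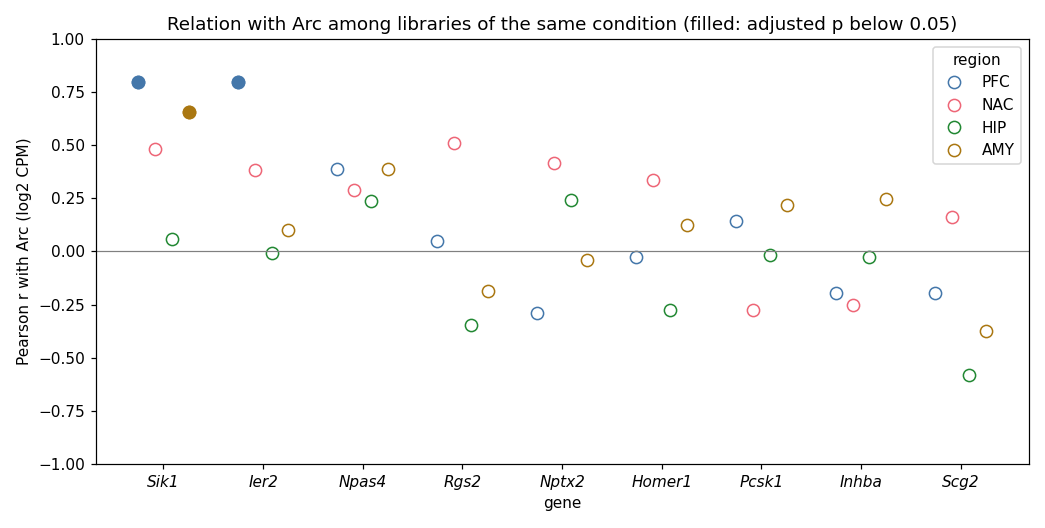
Pearson r with Arc (y axis) of the other 9 genes (x axis) among libraries of the same condition, by region (colour), over 24 or 25 libraries. Filled points, adjusted p below 0.05, are Sik1 in PFC and AMY and Ier2 in PFC.

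In the PFC, 4 libraries stood apart in Arc, above a gap. Arc stood at 150 to 163 CPM in control replicates 2 and 5, ketamine responder replicate 3 and imipramine non-responder replicate 3, and at 101 CPM or less in the other 21. These 4 were also the 4 highest in Sik1, at 15.1, 13.2, 12.1 and 11.9 CPM, and ranked 1, 2, 3 and 5 of 25 in Ier2. In Homer1 they ranked 12 to 21 and in Nptx2 9 to 24. Among the 21 libraries below the gap, a split chosen after the values were seen, r was 0.646 for Sik1 and 0.663 for Ier2 (permutation p = 0.0192 and 0.0291). With 21 libraries neither passed after adjustment over 9 genes (adjusted p = 0.131 for both). The condition means removed were those of all 25 libraries. Libraries sharing a condition with the 4 therefore kept a common offset, which enters r. Whether the relation holds within conditions without the 4 was not tested.

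**Figure D5:**
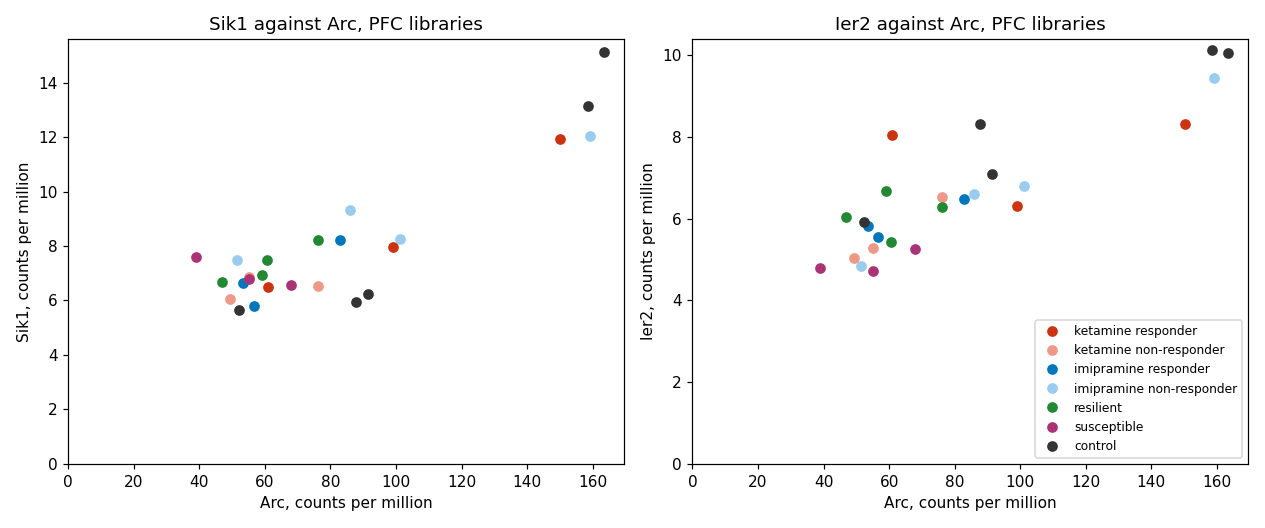
Sik1 (left) and Ier2 (right) against Arc in the 25 PFC libraries (CPM, linear axes from 0), coloured by condition. The 4 libraries with Arc above 150 CPM come from 3 conditions and top the Sik1 axis.

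Beyond the 10 genes, the patterns most like Arc were those of other immediate early genes. Over 99 libraries with the means of the 28 groups removed, and among 12593 genes, the highest r with Arc were those of Nr4a1 (0.836), Dusp1 (0.801), Fos (0.756), Junb (0.751) and Klf10 (0.654). Nr4a1, Fos, Junb and Klf10 encode transcription factors and Dusp1 a phosphatase that ends MAP kinase signalling. Sik1 ranked 6 (0.626), Ier2 111 (0.355) and Npas4 175 (0.323), while Rgs2 ranked 1847 and Homer1, Nptx2, Pcsk1, Inhba and Scg2 ranked 4045 to 11254. HIP values were lower for most of these genes: Fos had r of 0.825 in the PFC, 0.824 in the NAC, 0.802 in the AMY and 0.270 in the HIP, and Dusp1 0.083 in the HIP against 0.933 in the PFC. Nr4a1 stood at 0.701 in the HIP against 0.914 in the PFC. These r values are descriptions, given without a test. Arc also varied least in the HIP, with a pooled SD of 0.20 against 0.53 in the PFC. The part of that narrow spread in the lower HIP values was not tested. By the 28 group means, which mostly carry region, the closest were Gas1 (0.903), Zfpm1 (0.9003), Dnajb5 (0.896), Gpd1 (0.890) and Islr (0.886).

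Other genes of the programme also had negative fold changes in the PFC, with no call. Of 17 activity-induced transcription regulators, 16 had a negative fold change for susceptible over control in the PFC and 7 were at unadjusted p below 0.05, all lower, against 1.68% of all genes lower at that level, with a median of -0.33. Of all genes tested, 50.5% had a negative fold change there. Fos, the classic early gene, was at -1.20 (SE 0.46), Junb at -0.62 (SE 0.28) and Nr4a1 at -0.56 (SE 0.24). Of 20 other induced effectors, 17 were negative and 9 at that level, all lower, with a median of -0.30; Dusp1 was at -0.64 (SE 0.21) and Dusp6, another MAP kinase phosphatase, at -0.39 (SE 0.10). None of these passed after adjustment (edgeR adjusted p = 1.00). The lists were chosen with earlier results of these data known. Such genes varied together across PFC libraries (r with Arc 0.914 for Nr4a1, 0.933 for Dusp1 and 0.825 for Fos). The counts are therefore not independent of each other or of the Arc result. PFC control replicates 2 and 5 were among the 4 libraries above the gap in Arc, and no susceptible library was. In the HIP the same lists held 0 of 17 and 0 of 20 at that level, where 0.935% of all genes reached it and 0.512% were lower, with medians of -0.06 and -0.04. Of 15 upstream kinases, receptors and transcription factors that drive the programme, 10 were positive, 0 at unadjusted p below 0.05, with a median of 0.02. The receptor and scaffold partners of Arc, Homer1 and Nptx2 (12 genes), the granule partners of Scg2 and Pcsk1 (7) and the activin pathway of Inhba (8) also held 0 at that level, and the kinase and partner list of Sik1, Rgs2 and Npas4 held 1 of 9, Sik3 at 0.12 (SE 0.05).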

How the data were processed

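RNA-seq libraries were made from poly-A RNA with a kit that keeps no strand information, per the labels' protocols. The deposited values are raw counts of reads for every Ensembl gene in a single table. HTSeq 0.6.0, Bowtie2 2.1.0 and TopHat2 2.0.9 and the build NCBIM37 are named in the submitters' processing notes; counting settings are not given in the sources used here. Symbols were matched by exact ID (32919 of 37991). Among 132 within-group pairs of libraries 0 were identical. The 10 genes, the pathway lists and the markers were chosen with earlier results of these data known. No other annotated gene overlapped their exons in a later annotation.

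Each region was fitted alone with its 7 groups in edgeR 4.0.16 (R 4.3.3): filterByExpr with minimum count 10, TMM scaling, robust quasi-likelihood F-test, and Benjamini-Hochberg adjustment over the 17517 to 18392 genes tested; a call was an adjusted p below 0.05. Control mice were compared between regions over 19 libraries (17720 genes), and interactions over 99 (19024 genes). SE is the absolute log2 fold change over the square root of F. The 9 comparisons of a region share control or susceptible libraries, so their values stand side by side. Correlations used log2 CPM with prior count 2 and 100000 permutations. A log2 fold change is given for each member at unadjusted p below 0.05, and for Arc in susceptible over control in every region; the genes named as like Arc are the 5 with the highest r by each measure. Alternatives were median-ratio scaling, no filter, DESeq2 1.42.0, the 5 runs of consecutive sample numbers as a covariate or, between control regions, as a replicate block, and leaving out each library. Scripts were tested on simulated data.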

Additional observations from a re-analysis of the deposited data

Results flagged for a closer look

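Single libraries stood far from the rest of their group in 6 of 120 groups of 4 or 5 libraries checked. Chance gives about 1 in 20 groups, so this count is no more than chance gives. Arc was low in HIP resilient replicate 3, at 60.2 CPM with the next library at 73.6 CPM, and Ier2 was high in the same library, at 5.00 CPM against 3.53 CPM. Rgs2 was high in PFC control replicate 4, at 74.5 CPM against 53.6 CPM, and in AMY control replicate 4, at 96.8 CPM against 74.4 CPM. Inhba was high in PFC resilient replicate 3, at 7.48 CPM against 4.56 CPM, and in AMY control replicate 4, at 5.76 CPM against 2.42 CPM. AMY control replicate 4 was also the highest AMY control in Nptx2, Homer1 and Pcsk1, at 125, 190 and 57.7 CPM. That library held 743 CPM of choroid plexus markers, against 9.17 to 24.9 CPM in the other AMY controls. The part of this tissue in the AMY control comparisons was not tested. Leaving it out brought the AMY over PFC difference of Nptx2 past the threshold (-0.82, edgeR adjusted p = 0.00325) and the AMY over HIP difference of Inhba as well (-1.003, edgeR adjusted p = 2.41e-04).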

How the results depend on the processing

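The titles carry running sample numbers in 5 runs, which the labels do not say pair animals. Control libraries of the same run had deviations from their region means that correlated over 0.1 in 16 of 27 pairs (5 of 5 for AMY and PFC). Among pairs from other runs this was so for 7 of 108, with a median r of -0.035 against 0.125. The main fits between control regions and for interactions treat libraries as unpaired. With the run as a replicate block, a fit added after seeing the data, control comparisons called 6 to 9 members by pair. Arc NAC over PFC was lost (-0.62, adjusted p = 0.0902); Nptx2 AMY over PFC (-0.54), Inhba HIP over NAC (-0.77) and Inhba AMY over HIP (-0.63) were gained; and Inhba NAC over PFC, not called either way, stood at 0.0134. Under median-ratio scaling, no filter, DESeq2 and the run covariate, 0 members were called in each of the 36 comparisons; the count for any difference in the PFC was 1 with DESeq2 (Ier2) against 0. Leaving out single libraries gave 0 to 1 members called for NAC imipramine responders over susceptible mice, for NAC imipramine responders over non-responders and for AMY imipramine responders over non-responders, the 1 being Rgs2 each time. Rgs2 in NAC imipramine responders over susceptible mice ran from -0.0939 to 0.867. Between control regions, Scg2 HIP over PFC ran from -0.00151 to 0.0987 and Ier2 AMY over HIP from -0.257 to 0.0511. Without the low-count filter the control calls of Arc (NAC over PFC, AMY over HIP), Inhba (HIP over PFC), Sik1 (AMY over PFC) and Homer1 (AMY over NAC) were lost, with adjusted p of 0.0553 to 0.0961; the cause was not tested. Control calls were gained by Npas4 for NAC over PFC without NAC replicate 3 (-0.413, adjusted p = 0.0350) and by Sik1 for HIP over PFC without PFC replicate 1, 3 or 4 (-0.668 to -0.647). With the run covariate, 0 members passed with Arc in the AMY (Sik1 r = 0.605, adjusted p = 0.0823), and r changed sign for Rgs2 (-0.0922) and Pcsk1 (-0.0929) in the PFC, Npas4 (-0.476), Homer1 (0.276), Rgs2 (0.0777), Pcsk1 (0.221) and Inhba (0.0341) in the HIP, and Nptx2 (0.0134) in the AMY. Among the 21 PFC libraries below the gap in Arc, 0 members passed, and r was 0.177 for Homer1 and 0.0362 for Inhba, both of the other sign. The condition means removed there were those of all 25 PFC libraries. The alternatives for the interaction tests were run except leaving out libraries, which was not run. Groups of 3 to 5 pooled libraries limit what can be called, and so does the count of Inhba in the AMY.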

Other observations

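Arc also varied in step between the PFC and the AMY. Libraries of the same condition and the same run of sample numbers were set side by side where each region had only 1 such library, a matching chosen after the values were seen, and condition means were removed. Over 21 such pairs of 1 PFC and 1 AMY library, log2 Arc had Pearson r = 0.863 and Spearman rho = 0.852. By permutation within conditions, unadjusted p was 1.80e-04 and 1.50e-04, and adjusted p 0.0108 and 0.0090 over 60 relations. Without the 2 pairs whose PFC library lay farthest from the median, r was 0.830. Arc was the only one of the 10 genes to pass in any of the 6 pairs of regions, and only between PFC and AMY. The other pairs of regions gave 7 to 13 matched pairs of libraries, which limits what they could detect. With 7 pairs of NAC and HIP libraries the smallest permutation p was 0.501, so no gene could pass there. Arc had r = -0.24 for PFC and NAC, -0.42 for PFC and HIP and -0.44 for HIP and AMY. It had r = -0.15 for NAC and HIP and 0.01 for NAC and AMY. Sik1 had r = 0.581, Pcsk1 0.527 and Npas4 0.489 between PFC and AMY (adjusted p = 0.511, 0.445 and 0.511). In the other direction, Npas4 had r = -0.847 between PFC and NAC over 10 pairs (permutation p = 0.0141, adjusted p = 0.424). Of the 60 relations, 35 were positive. In control mice, Arc in replicates 1 to 5 was 34.9, 60.1, 34.5, 44.97 and 62.2 CPM in the AMY and 91.4, 159, 52.2, 87.8 and 163 CPM in the PFC, so replicates 2 and 5 were the highest in both. The labels do not say whether such libraries come from the same mice, and if they do, the values of different regions are not independent.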
